A study of Mus musculus with 12 samples.

Results

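The 10 genes described here were grouped as the protein disulfide isomerase (PDI) family and related thioredoxin-fold proteins of the endoplasmic reticulum (ER). The grouping was taken as given, and the fold of each protein was not examined. They were chosen by gene symbol, with earlier results of these data known: P4hb, Pdia3, Pdia4, Pdia5, Pdia6, Txndc5, Erp29, Erp44, Creld2 and Tmx1. All 10 were found once each among the 54532 genes of the deposited count table, and all 10 were among the 14424 genes with enough reads to be tested. The data were RNA sequencing counts from 12 libraries of wild-type ATDC5 cells, a mouse line of cartilage progenitor cells often taken as a model of how chondrocytes form. Cells of every group were grown at 37 °C in high-sugar DMEM with serum and were then held for 10 min at 37 °C (the control), at 40 °C or at 44 °C, with 4 biological replicates at each temperature per the series design text. All groups are the same line with no allele, transgene or drug, the interval between heating and RNA extraction is not stated, and nothing says whether the replicates came from separately grown cultures, so p-values measure the spread between these samples.

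Secreted and membrane proteins acquire disulfide bonds in the ER, where PDI-family enzymes form, break and reshuffle the bonds through thioredoxin-like domains. The classical enzymes carry paired cysteines that pass electrons on to ER oxidases of the ERO1 type, while other members lack a complete pair and act as escorts or retention factors. Many genes of the family are known targets of the unfolded protein response (UPR), in which the transcription factors ATF6 and XBP1 raise the folding capacity of the ER. In cartilage and its precursor cells the family serves collagen production, because P4HB is also the beta subunit of collagen prolyl 4-hydroxylase.

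Library totals ranged from 16469745 to 19506705 counts for 37 °C, from 16269026 to 19303450 for 40 °C, and from 16606597 to 17612087 for 44 °C. Levels are given in CPM, the usual counts-per-million unit, on library sizes scaled by TMM, the trimmed mean of M values. Of 12 markers of cartilage progenitors and chondrocytes, the mesenchymal regulator Prrx1 had 347 ± 15.3 CPM and Sox9 54.2 ± 10.2 CPM at 37 °C (SD, n = 4). The cartilage matrix genes Col2a1 and Acan had only 1.21 ± 0.230 and 2.13 ± 0.420 CPM, Sox6 and Comp were under 1 CPM, and Col9a1 and Matn1 had no read in any library. The summed level of the 12 was 620.1 to 725 CPM of library totals for 37 °C, 573 to 642 for 40 °C and 473 to 618 for 44 °C. The summed level of 7 fibroblast and mesenchymal markers, mostly the intermediate filament gene Vim, was 4007 to 4473, 3678 to 4524 and 3160.5 to 3681 in the same order, with Col1a2 and Thy1 under 1 CPM. At 44 °C against 37 °C 3 of the 5 tested markers of that list were lower and none higher (median log2 fold change −0.32, the same to this rounding as for the 10 PDI family genes): Vim fell to 0.803 of its control level, Col3a1 to 0.416 and S100a4 to 0.393. Of 8 tested cartilage markers 2 were lower and none higher, Prrx1 (0.756 of control) and Twist1 (0.821). Over all genes tested 7.11% were lower and 6.58% higher in this comparison. The summed level of 5 endothelial markers was 2.49 to 3.72, 2.96 to 4.20 and 4.22 to 6.33 in the same order. That of 6 blood and macrophage markers, with Adgre1 at 0, was 36.8 to 51.9, 30.5 to 40.6 and 28.2 to 40.7. That of 6 epithelial markers, with Krt5 at 0, was 110.4 to 147, 98.4 to 138 and 119 to 150.4. The endothelial genes Pecam1 and Cdh5 were higher at 44 °C and the epithelial gene Krt14 lower, and no blood marker was called. Pecam1 had 0.835 and Cdh5 0.275 CPM at 37 °C, against 1.85 and 0.660 CPM at 44 °C. These values rest on few reads, 11 to 39 per library for Pecam1 and 3 to 14 for Cdh5. The Krt14 libraries at 37 °C and 44 °C overlapped. Of the 4 tested epithelial markers 2 had a negative sign in this comparison. The more abundant Krt18 went the other way, from a mean of 91.6 CPM in the control to 109 CPM after 44 °C. This difference (0.25 on the log2 scale) did not pass (edgeR adjusted p = 0.0748). Against 40 °C Krt18 was called higher (0.34, edgeR adjusted p = 0.0385), with overlapping libraries. The part of these shifts in the differences below was not tested, and in bulk samples fewer cells of a type and less RNA per cell cannot be told apart.

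After 10 min at 44 °C, 6 of the 10 genes were lower than in the control and none was higher. Pdia4 and Pdia6 fell most, to about 0.605 and 0.608 of the control level, followed by Pdia3 (0.721), Erp29 (0.794), P4hb (0.809) and Creld2 (0.811). Pdia5 had a similar estimate but did not pass the test, and Txndc5, Erp44 and Tmx1 did not pass either. Over all genes tested, 13.7% were called in this comparison, 7.11% lower and 6.58% higher, by edgeR's quasi-likelihood test at a Benjamini-Hochberg adjusted p under 0.05. For 7 of the 10 genes every library at 44 °C lay below every library at 37 °C, against 9.13% of all genes tested. The median log2 fold change of the 10 genes was −0.32, against −0.00 for all genes tested.

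Pdia4 encodes ERp72, an ER isomerase with several catalytic thioredoxin domains. Its level was 363, 353, 348 and 348 CPM in the 4 libraries at 37 °C, 354, 300.2, 372 and 362 CPM at 40 °C, and 229, 198, 230.2 and 198 CPM at 44 °C. The 44 °C libraries all lay below the lowest library of either other temperature, and the 300.2 CPM of 40 °C replicate 2 was the low value of its group. The log2 fold change at 44 °C against 37 °C was −0.72 ± 0.07 (SE), with an edgeR adjusted p of 3.84e-05. The gene (ENSMUSG00000025823) lies on chromosome 6, 47796141 to 47813430, minus strand, in mm10 coordinates as the deposited table gives them for this and the other genes.

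Pdia6 encodes P5, an isomerase that works beside the ER chaperone BiP. Its level was 564, 523, 509.9 and 546 CPM at 37 °C, 547, 460.3, 528 and 576 CPM at 40 °C, and 354, 295, 339 and 315 CPM at 44 °C. As for Pdia4, no library at 44 °C reached any library of the other temperatures, and 40 °C replicate 2 was the lowest of its group. The log2 fold change was −0.72 ± 0.07 (SE, edgeR adjusted p = 4.12e-05). Pdia6 (ENSMUSG00000020571) lies on chromosome 12, 17266545 to 17284770, plus strand, and its last bases overlap the minus-strand gene Atp6v1c2, which had 31 to 60 reads per library against 4856 to 11189 for Pdia6.

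Pdia3 encodes ERp57, the isomerase that is brought to glycoproteins by the lectin chaperones calnexin and calreticulin. Its level was 374, 381, 375 and 375 CPM at 37 °C, 377, 363, 373 and 383 CPM at 40 °C, and 261, 266, 274 and 284 CPM at 44 °C. The libraries within each temperature were close to each other, and the 44 °C libraries stood apart from the rest. The log2 fold change was −0.47 ± 0.04 (SE, edgeR adjusted p = 1.6e-05), the smallest adjusted p of the 10 genes. The gene (ENSMUSG00000027248) lies on chromosome 2, 121413775 to 121438687, plus strand, and its first bases overlap Catsper2 on the other strand, which had 12 to 39 reads per library.

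**Figure D1:**
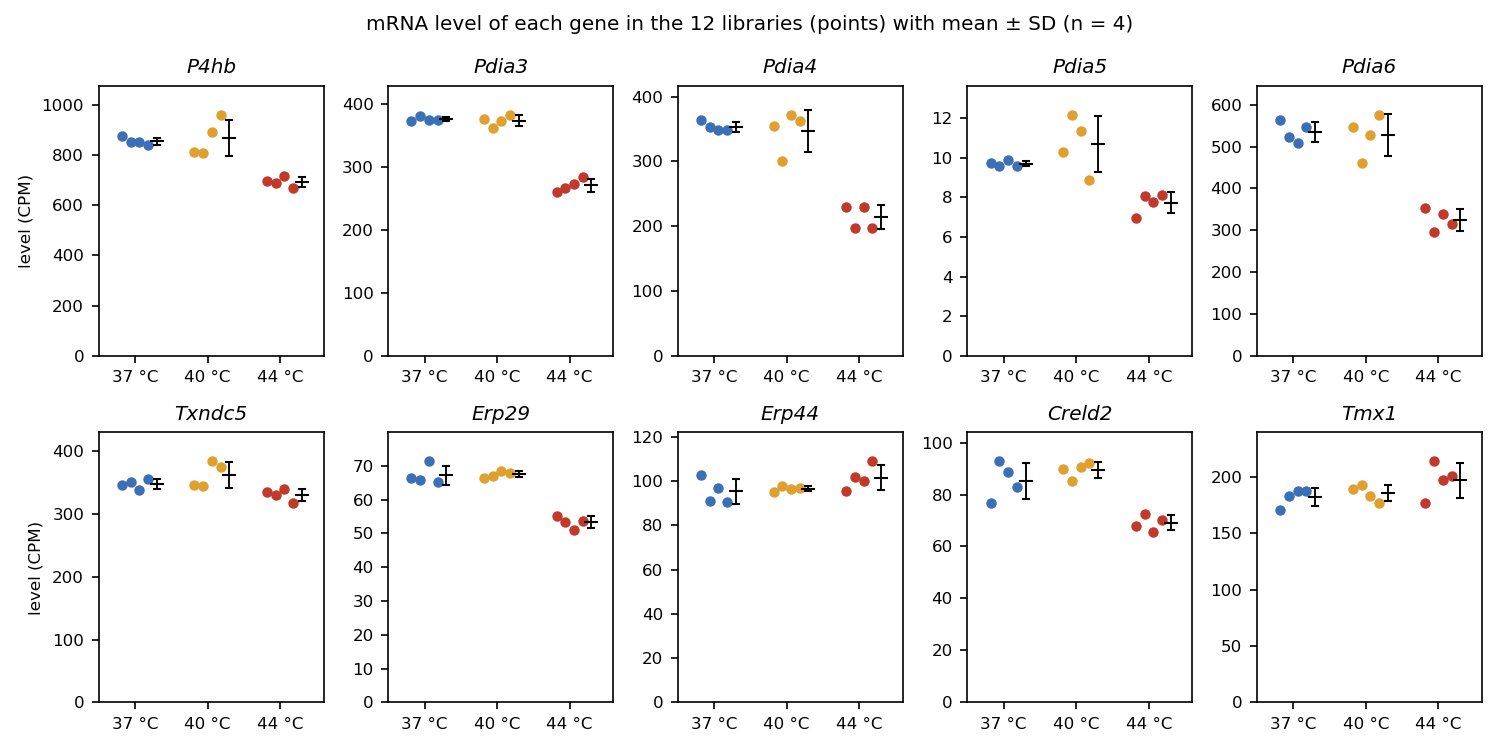
Level of each of the 10 genes in CPM (vertical axes from 0, separate for each gene) in the 4 libraries at 37 °C (blue), 40 °C (orange) and 44 °C (red), with the mean ± SD beside the points. For Pdia4, Pdia6, Pdia3, Erp29, P4hb, Creld2 and Pdia5 the 4 red points lie below all blue points, and for Txndc5, Erp44 and Tmx1 they overlap them.

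Creld2 encodes an ER protein with reported isomerase activity, is known as an ER stress-inducible gene and was studied in cartilage disease. Its level was 76.8, 92.7, 88.6 and 83.0 CPM at 37 °C, 89.9, 85.1, 90.4 and 92.2 CPM at 40 °C, and 67.9, 72.6, 65.7 and 70.4 CPM at 44 °C. The groups at 37 °C and 44 °C did not overlap, although 37 °C replicate 1, at 76.8 CPM, came close to the 72.6 CPM of 44 °C replicate 2. Its log2 fold change was −0.30 ± 0.06 (SE, edgeR adjusted p = 0.00650). Creld2 (ENSMUSG00000023272) lies on chromosome 15, 88819646 to 88826683, plus strand.

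The promoters of the 10 genes were searched for the ER stress response element (ERSE), a known element of UPR target genes, which consists of the box CCAAT, 9 bases of any kind and the box CCACG. RefSeq start-site windows of 300 bases (GRCm38.p6, the assembly of mm10, 250 bases before to 50 after the start) were at hand for 9 of the 10 genes, in 12 windows, with Erp29 not matched. The complete element on either strand was in the windows of Pdia6 and Creld2, and in 0.119% of all 32851 windows. With 1 of the 10 fixed letters allowed to differ it was also in those of Pdia4, Pdia3 and Erp44, and in 1.5% of all windows. The following stretches of 70 bases, on the strand of each gene and ending before its RefSeq start site, show the match in capitals:
Pdia6, chr12:17266459-17266528, plus strand: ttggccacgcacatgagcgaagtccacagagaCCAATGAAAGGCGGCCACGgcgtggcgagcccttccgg
Creld2, chr15:88819516-88819585, plus strand: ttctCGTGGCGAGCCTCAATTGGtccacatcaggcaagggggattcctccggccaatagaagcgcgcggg
Pdia4, chr6:47813573-47813642, minus strand: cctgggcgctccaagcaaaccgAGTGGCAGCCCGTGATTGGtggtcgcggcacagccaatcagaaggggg
Pdia3, chr2:121413832-121413901, plus strand: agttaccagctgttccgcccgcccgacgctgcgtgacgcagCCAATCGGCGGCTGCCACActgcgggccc
Erp44, chr4:48279696-48279765, minus strand: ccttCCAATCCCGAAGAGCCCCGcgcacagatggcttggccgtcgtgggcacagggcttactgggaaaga

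Pdia6, Pdia3 and Erp44 carry the match in the direction of the gene, and Creld2 and Pdia4 carry it as the reverse complement. The Pdia3 stretch precedes its RefSeq start site but lies inside the gene as deposited, which starts at 121413775. Counted from 1 at the 5′ end of the element, the differing letter was G19T in Pdia4, G19A in Pdia3 and A17C in Erp44. Erp44 has a match with 1 letter different and was not called at 44 °C, while P4hb was lower and has none in its window. A link between the matches and the differences at 44 °C was not tested. The related UPR element TGACGTGG was found in 1 window, that of a downstream start site of Txndc5, and in 0.676% of all windows. The ERSE-II element (ATTGG, 1 free base and CCACG, in 0.0365% of windows), the heat shock element (GAA, TTC and GAA with 2 free bases between neighbours, read on both strands, in 0.603%) and the amino acid response element TGATGNAAT (0.965%) were in none of the 12 windows, which says only that these letters are not in those windows. The CCAAT box alone was in 7 of the 12 windows and CCACG alone in 9, against 37.4% and 32.8% of all windows, counts that include the boxes of the ERSE matches. A match is a run of letters and not a measured binding site.

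P4hb encodes PDI itself, which is also a subunit of collagen prolyl 4-hydroxylase and of the microsomal triglyceride transfer protein. Its level was 874, 850.2, 853 and 841 CPM at 37 °C, 809, 809, 890.1 and 959 CPM at 40 °C, and 694, 689.6, 714 and 666 CPM at 44 °C. The spread was widest at 40 °C, where replicate 4 was the highest of all 12 libraries, and no 44 °C library reached the other temperatures. The log2 fold change was −0.31 ± 0.05 (SE, edgeR adjusted p = 0.00259). P4hb (ENSMUSG00000025130) lies on chromosome 11, 120560298 to 120573253, minus strand.

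Erp29 encodes a redox-inactive relative of PDI that escorts secretory proteins. It had 66.4, 65.8, 71.3 and 65.2 CPM at 37 °C, 66.5, 67.0, 68.5 and 67.8 CPM at 40 °C, and 55.2, 53.3, 51.1 and 53.6 CPM at 44 °C. The 44 °C libraries lay below all others, which were close to each other. Its log2 fold change was −0.33 ± 0.05 (SE, edgeR adjusted p = 0.00118). The gene (ENSMUSG00000029616, chromosome 5, 121428590 to 121452506, minus strand) overlaps Naa25 on the opposite strand, which had 1431 to 1929 reads per library against 872 to 1316 for Erp29, and since it is not stated whether counting used the strand, reads of the shared stretch cannot be told apart.

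Pdia5 encodes PDIR, a lowly expressed isomerase that has been linked to activation of the UPR sensor ATF6. It had 9.73, 9.59, 9.91 and 9.61 CPM at 37 °C, 10.3, 12.2, 11.3 and 8.90 CPM at 40 °C, and 6.95, 8.08, 7.79 and 8.12 CPM at 44 °C. Its 4 libraries at 44 °C lay below all 8 others, and the counts behind these values were 119 to 218 per library. Against 37 °C the log2 fold change was −0.33 (95% interval −0.57 to −0.09) and missed the threshold (edgeR adjusted p = 0.0645), while DESeq2 gave an adjusted p of 0.0445. Over all alternatives run the adjusted p of Pdia5 in this comparison lay between 0.0445 and 0.163, and it also passed without 40 °C replicate 4 (0.0466). The gene (ENSMUSG00000022844) lies on chromosome 16, 35397312 to 35490873, minus strand.

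The other 3 genes did not pass the test at 44 °C against 37 °C. Of these, Txndc5 encodes ERp46, an isomerase with fast catalytic domains, and had 346, 352, 339 and 356 CPM at 37 °C, 346, 345, 384 and 376 CPM at 40 °C, and 335, 329.8, 339.5 and 317 CPM at 44 °C. Its 37 °C and 44 °C libraries overlapped, and the log2 fold change was −0.08 with a 95% interval of −0.18 to 0.03 (edgeR adjusted p = 0.304). Txndc5 (ENSMUSG00000038991, chromosome 13, 38500079 to 38528824, minus strand) overlaps Bmp6 on the other strand, which had 12 to 39 reads per library.

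Erp44 retains ERO1 oxidases and unfinished oligomers in the early secretory pathway by forming mixed disulfides. It had 103, 91.0, 97.0 and 90.7 CPM at 37 °C, 94.9, 97.9, 96.6 and 96.9 CPM at 40 °C, and 95.4, 101.7, 99.9 and 109 CPM at 44 °C. The groups overlapped, with a log2 fold change of 0.09 and a 95% interval of −0.03 to 0.21 (edgeR adjusted p = 0.299). Erp44 (ENSMUSG00000028343) lies on chromosome 4, 48193323 to 48279558, minus strand.

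Tmx1 encodes a membrane-anchored oxidoreductase of the ER. It had 171, 183, 187 and 187 CPM at 37 °C, 189.6, 192, 183 and 177 CPM at 40 °C, and 177, 214, 197 and 200.3 CPM at 44 °C. The highest value belonged to 44 °C replicate 2, while 44 °C replicate 1 lay among the controls. Its log2 fold change was 0.11 with a 95% interval of −0.01 to 0.24 (edgeR adjusted p = 0.207). Without 44 °C replicate 1 the estimate was 0.17 and passed as higher (edgeR adjusted p = 0.0419, range over the alternatives 0.0419 to 0.500). The gene (ENSMUSG00000021072) lies on chromosome 12, 70453095 to 70468040, plus strand.

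At 40 °C none of the 10 genes differed detectably from 37 °C. Their log2 fold changes lay between −0.02 (Pdia4) and 0.14 (Pdia5), the groups overlapped for every one (2.23% of all genes lay wholly below and 1.61% wholly above), and the smallest adjusted p was 0.823. The 95% intervals of the 10 differences reached from −0.17 at the lowest to 0.37 at the highest, the latter for Pdia5. For Pdia3 the interval was −0.10 to 0.08, for Pdia4 −0.17 to 0.12 and for Pdia6 −0.17 to 0.13, so falls of the size seen at 44 °C lie outside them. Over all genes tested edgeR called 0% in this comparison, with 752 genes (5.21%) at an unadjusted p under 0.05, and DESeq2 called 4 genes.

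**Figure D2:**
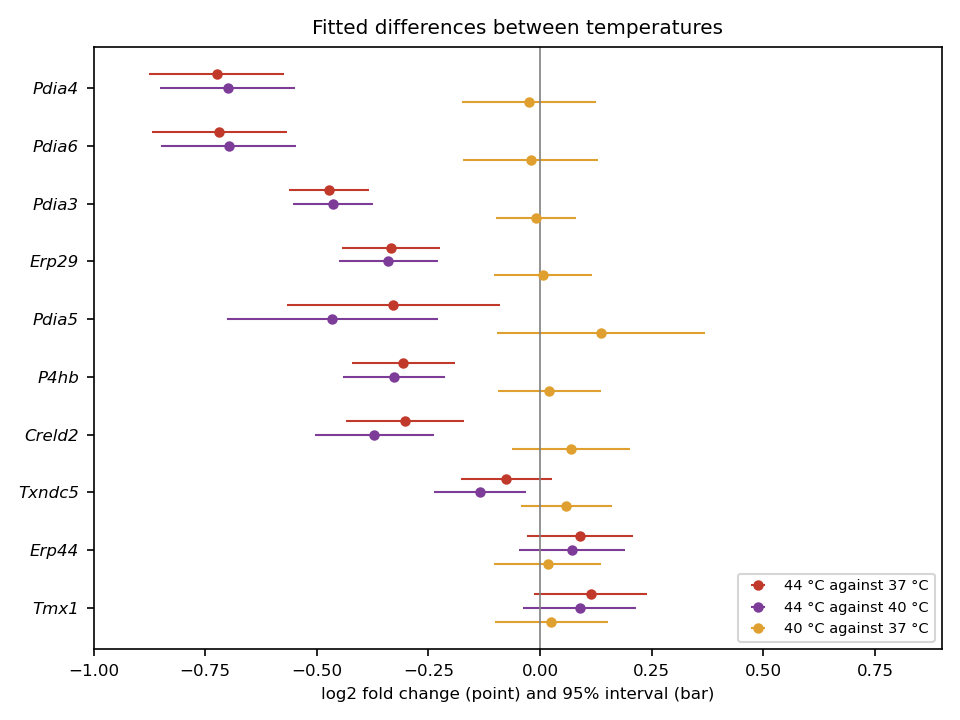
Fitted log2 fold change (point) with its 95% interval (bar) for each gene, ordered by the difference between 44 °C and 37 °C, for 44 °C against 37 °C (red), 44 °C against 40 °C (purple) and 40 °C against 37 °C (orange). The orange intervals all include 0, while the red and purple ones lie below 0 for Pdia4, Pdia6, Pdia3, Erp29, Pdia5, P4hb and Creld2 and reach −0.87 and −0.85 for Pdia4.

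The step from 40 °C to 44 °C was tested on its own. Of the 10 genes 7 were lower at 44 °C than at 40 °C and none was higher, where 5.02% of all genes were called, 3.14% lower and 1.88% higher. The log2 fold changes were −0.70 ± 0.07 for Pdia4, −0.70 ± 0.07 for Pdia6, −0.46 ± 0.04 for Pdia3, −0.37 ± 0.06 for Creld2, −0.34 ± 0.05 for Erp29 and −0.33 ± 0.05 for P4hb (SE), with edgeR adjusted p between 2.26e-05 and 0.00329. Pdia5 was the seventh gene, at −0.47 ± 0.11 (edgeR adjusted p = 0.0254, range over its alternatives 0.00368 to 0.0802). Its call was lost without 40 °C replicate 1 (0.0571), 40 °C replicate 2 (0.0516), 40 °C replicate 3 (0.0802), 44 °C replicate 2 (0.0519) or 44 °C replicate 3 (0.0585), and when only those 8 libraries were fitted (0.0782). It was also lost at a threshold of 0.01.

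Txndc5 lay lower in all 4 libraries at 44 °C than in all 4 at 40 °C, with a log2 fold change of −0.13 (95% interval −0.24 to −0.03), but did not pass the test (edgeR adjusted p = 0.128). In all, 8 of the 10 genes had groups that did not overlap in that direction, against 5.44% of all genes. Erp44 (0.07) and Tmx1 (0.09) did not pass. The median of the 10 was −0.36, against 0.01 for all genes tested. Each pair of these comparisons shares a group of libraries, so their values stand side by side and are not independent. A joint test over the 3 temperatures called 7 of the 10 genes, all but Txndc5 (adjusted p = 0.183), Tmx1 (0.377) and Erp44 (0.495), against 8.21% of all genes. The joint call of Pdia5 (adjusted p = 0.0399) was lost in 11 of the 12 fits that left out a library, all but the one without 40 °C replicate 4, as well as without the filter and at a threshold of 0.01 (range over its alternatives 0.00693 to 0.0904). The other 6 genes were called in the joint test under all 18 alternatives run.

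Summed over the 10 genes, the level was 2907 ± 29.1 CPM for 37 °C, 2927 ± 157 for 40 °C and 2260.3 ± 45.3 for 44 °C (SD, n = 4 each). As a share of all counts, with no TMM scaling, this was 0.292% ± 0.00594, 0.290% ± 0.0190 and 0.227% ± 0.00721. The 44 °C libraries, at 0.221% to 0.234%, lay below all the others, of which the lowest was 0.265%. Ratios between the genes within a library need no scaling. The count of Pdia4 relative to that of Txndc5 was 0.978 to 1.05 at 37 °C, 0.871 to 1.02 at 40 °C and 0.599 to 0.684 at 44 °C. The count of Pdia6 relative to Tmx1 was 2.72 to 3.30, 2.39 to 3.26 and 1.38 to 2.003. P4hb relative to Txndc5 moved less, from 2.36 to 2.52 at 37 °C and 2.32 to 2.55 at 40 °C to 2.07 to 2.10 at 44 °C. The 3 pairs were picked with their values known and are given as description.

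To compare levels between the genes, counts were divided by the gene length of the deposited table and given as CPM per kilobase. P4hb was the most abundant at 37 °C, at 299 ± 4.91, followed by Pdia4 (147 ± 2.98), Pdia6 (143 ± 6.48), Pdia3 (119.9 ± 1.07), Txndc5 (77.5 ± 1.63), Creld2 (62.4 ± 5.08), Tmx1 (55.2 ± 2.36), Erp44 (27.9 ± 1.68), Erp29 (7.41 ± 0.307) and Pdia5 (3.504 ± 0.0533). Of these neighbours Pdia4 and Pdia6 overlapped between libraries, as did Creld2 and Tmx1, and the others did not. The deposited length of Erp29, 9060 bases, was the longest of the 10, and its place rests on that length. At 44 °C the length-scaled levels of Pdia4 (89.1 ± 7.66), Pdia6 (86.9 ± 6.93) and Pdia3 (86.4 ± 3.23) overlapped each other, and Tmx1 (59.7 ± 4.64) stood above Creld2 (50.6 ± 2.18) without overlap. P4hb remained the highest of the 10 at 44 °C, at 242 ± 6.85, and Pdia5 the lowest at 2.79 ± 0.196. The gap between the isomerases that fell most and Txndc5 (73.5 ± 2.17) was narrower on this scale at 44 °C than at 37 °C.

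**Figure D3:**
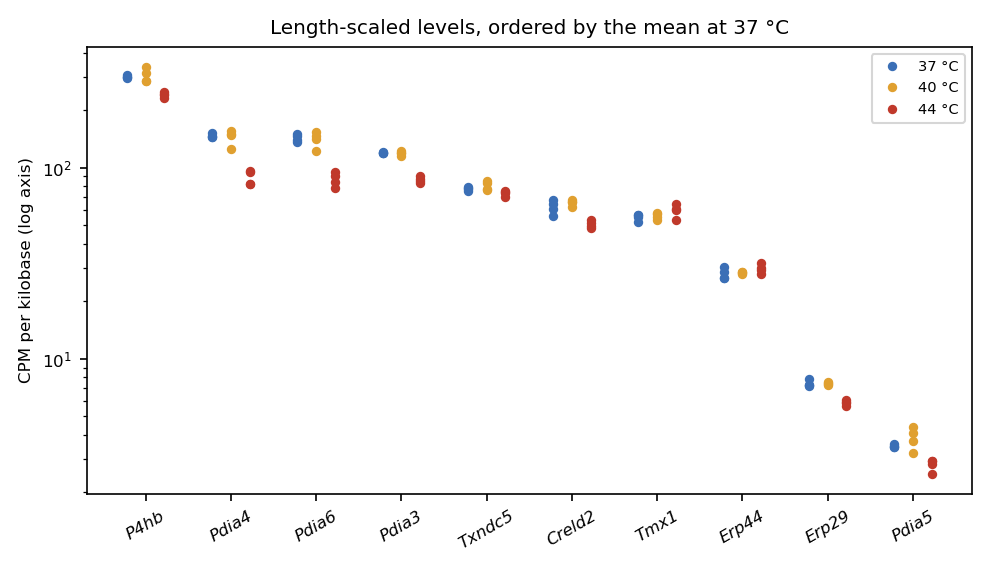
Length-scaled levels (CPM per kilobase, log axis) of the 10 genes, ordered by their mean at 37 °C, with each of the 4 libraries at 37 °C (blue), 40 °C (orange) and 44 °C (red) as a point. P4hb is highest at every temperature and Pdia5 lowest, and the red points of Pdia4, Pdia6 and Pdia3 come to lie at one height, between 78.7 and 96.0.

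Across the 12 libraries Pdia4 and Pdia6 followed each other most closely of all pairs, with Pearson r = 0.990 between their log2 CPM. The pair also had the highest r of deviations from the group means (0.864), as both were low in 40 °C replicate 2 and in 44 °C replicates 2 and 4. Pdia3, by contrast, had r = 0.955 with Pdia4 over all libraries and 0.0657 within groups, so their likeness lay in the group means. P4hb and Txndc5 had r = 0.780 within groups, both being high in 40 °C replicates 3 and 4. Within groups Pdia6 ran opposite to Pdia5 (r = −0.817) and to Tmx1 (r = −0.774). These values describe 12 libraries that share their groups and depth, and carry no test.

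**Figure D4:**
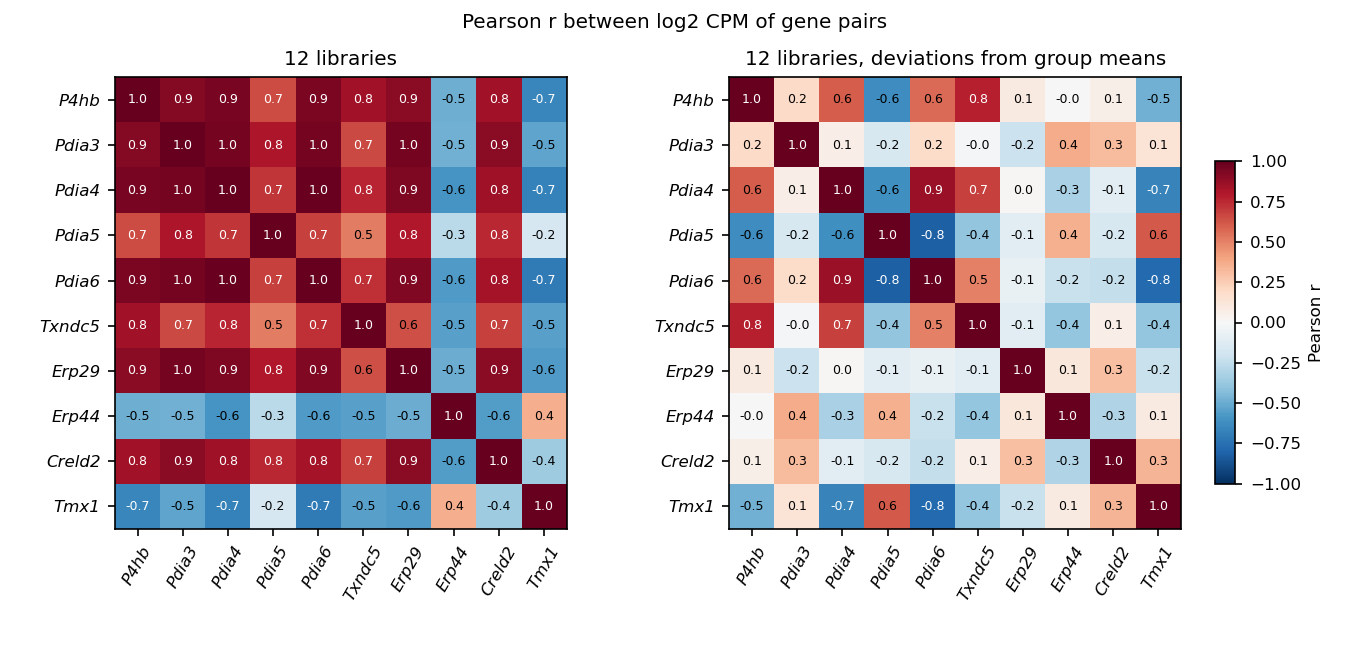
Pearson r between the log2 CPM of each pair of the 10 genes over the 12 libraries (left) and over deviations from the group means (right), from −1 (blue) to 1 (red). On the left the 8 genes other than Erp44 and Tmx1 form a red block, and on the right only some pairs stay high, led by Pdia4 with Pdia6 at 0.864.

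Among 9941 other genes with at least 5 CPM, those most like the mean standardised profile of the 10 over the 12 libraries were Rpn2 (r = 0.977), a subunit of the oligosaccharyltransferase, and Acta2 (0.9752), smooth muscle actin. Next came the BiP gene Hspa5 (0.9747), the calreticulin gene Calr (0.972), the cargo receptor gene Tmed10 (0.969), the connexin gene Gja1 (0.963), the ER lectin gene Mlec (0.962), the collagen chaperone gene Serpinh1 (0.957), Mical3 (0.954) and Kif26b (0.950). Taken singly, Pdia3 was most like Calr (r = 0.995), while both Pdia4 (0.991) and Pdia6 (0.991) were most like Lgals3bp, a secreted glycoprotein gene. Creld2 was most like Mlec (0.961), Erp29 like Bst2 (0.965), P4hb like Wisp1 (0.964), Txndc5 like the KDEL receptor gene Kdelr3 (0.944) and Pdia5 like Shmt2 (0.952). For Tmx1 it was Ddx52 (0.963) and for Erp44 Zbtb44 (0.876), the weakest of these likenesses. These genes were picked as the highest of the 9941, and r includes the differences between group means. The values carry no test, and r within groups was not taken for them.

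Partners of the family were examined as a list of 16 chaperones and enzymes. At 44 °C against 37 °C 8 were lower and none higher (median log2 fold change −0.30), against 7.11% and 6.58% of all genes. Some of these genes belong to a response already seen in these libraries, so the count is no independent evidence of direction. Calreticulin and calnexin both bring Pdia3 to glycoproteins. Calr fell (log2 fold change −0.80 ± 0.05, edgeR adjusted p = 7.85e-07), whereas Canx, with 653 ± 42.4 CPM in the control and 606 ± 54.9 CPM after 44 °C, did not pass (−0.11, adjusted p = 0.294). Hspa5, whose product BiP works with Pdia6, and the ER HSP90 gene Hsp90b1 fell by 0.85 and 0.65 on the log2 scale. At 40 °C these 4 genes had log2 fold changes between −0.03 and 0.05 and no gene of the list was called. For 44 °C against 40 °C, 9 of the 16 were lower and none higher, against 3.14% and 1.88% of all genes.

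P4hb pairs with prolyl 4-hydroxylase alpha subunits, and of their genes P4ha1 (log2 fold change −0.29, edgeR adjusted p = 0.1005) and P4ha2 (−0.21, 0.144) did not pass the test at 44 °C against 37 °C. P4ha3, named after its values were seen, fell from 11.05 ± 1.84 to 6.81 ± 1.13 CPM (−0.70 ± 0.16, edgeR adjusted p = 0.0111). Mttp, which encodes the transfer protein that holds P4hb as a subunit, had −0.32 and was not called (adjusted p = 0.0751). The partner gene Tapbp, whose product tapasin binds Pdia3 in the loading of MHC class I molecules, fell by 0.63 (edgeR adjusted p = 0.00621), and both Mttp and Tapbp were named after their values were seen.

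Of 13 collagen-modifying enzymes and collagen chaperones 11 were tested. At 44 °C against 37 °C 5 were lower and none higher (median −0.17), against 7.11% and 6.58% of all genes. The collagen chaperone gene Serpinh1, which encodes HSP47, fell from 364 ± 8.38 to 272 ± 7.53 CPM (log2 fold change −0.42 ± 0.05, edgeR adjusted p = 0.000224). The lysyl hydroxylase gene Plod3 (−0.33) and the prolyl isomerase gene Fkbp14 (−0.76) fell as well, with edgeR adjusted p of 0.00229 and 0.0086. For 44 °C against 40 °C, 5 of the 11 were lower and none higher, against 3.14% and 1.88% of all genes. None was called at 40 °C against 37 °C.

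The list of ER thiol oxidases and redox enzymes had 12 genes, among them those that recharge PDI enzymes. At 44 °C against 37 °C 2 were lower and none higher (median −0.19), and 1 was lower against 40 °C. Of all genes tested 7.11% were lower in the former comparison and 3.14% in the latter, not far from these counts. Gpx7, a glutathione peroxidase of the ER, fell from 11.5 ± 0.855 to 7.44 ± 0.661 CPM (log2 fold change −0.62 ± 0.12, edgeR adjusted p = 0.00426), and the selenoprotein gene Selenof fell by 0.18 (adjusted p = 0.0251). The sulfhydryl oxidase gene Qsox1 had −0.28 (adjusted p = 0.0705). Ero1a, the main oxidase of PDI and a client of Erp44, had 414 ± 142 CPM at 37 °C, 338 ± 109 at 40 °C and 264 ± 107 at 44 °C, with overlapping libraries. Its log2 fold change of −0.65 (95% interval −1.26 to −0.03) missed the adjusted threshold (edgeR adjusted p = 0.144).

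**Figure D5:**
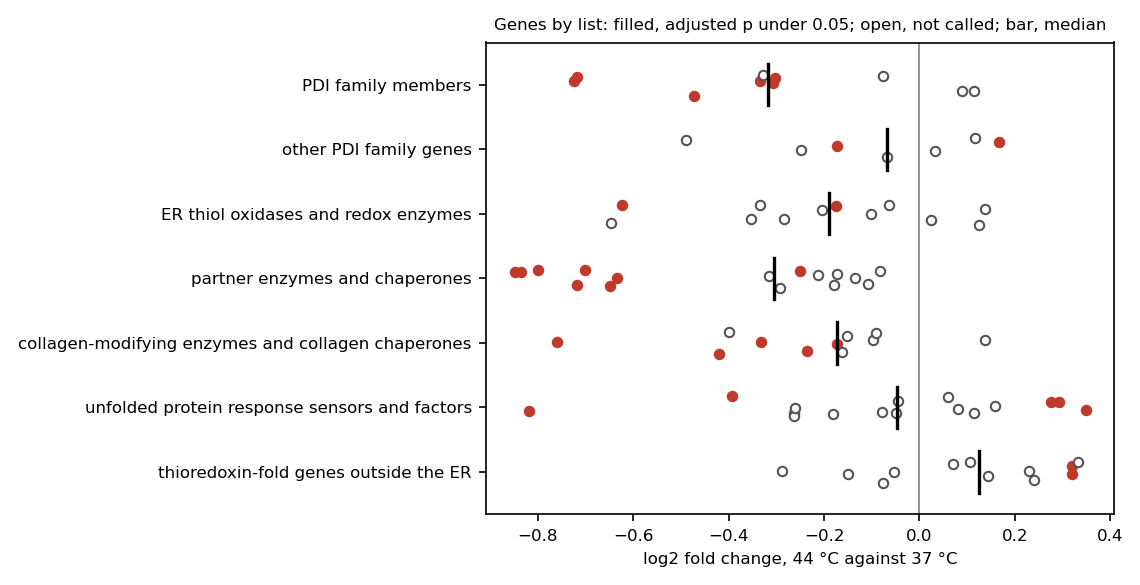
Log2 fold change at 44 °C against 37 °C (horizontal axis) of each tested gene of 7 lists (rows), with genes at an edgeR adjusted p under 0.05 filled red, the others open, and the median of each list as a black bar. The PDI family genes (median −0.32) and their partners (−0.30) have the lowest medians, and thioredoxin-fold genes outside the ER have a median of 0.12.

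Other genes of the PDI family were examined as a list. Of 14 listed, 7 were tested, and Pdia2, Pdilt, Agr2 and Agr3 had no read in any library. At 44 °C against 37 °C 1 of the 7 was lower and 1 higher (median log2 fold change −0.07). Of all genes tested 7.11% were lower and 6.58% higher, not far from these counts. Tmx2, a membrane oxidoreductase gene, was higher at 44 °C (78.6 ± 2.66 CPM) than in the control (70.04 ± 2.76 CPM), with a log2 fold change of 0.17 (edgeR adjusted p = 0.0493). Txndc12, which encodes ERp18, fell by 0.17 (edgeR adjusted p = 0.0486). Both lay just under the threshold, and their calls under the alternatives were not examined. In edgeR's joint test Tmx2 passed (adjusted p = 0.0380) and Txndc12 did not (0.128). Txndc11 had −0.25 (adjusted p = 0.0606) and was lower against 40 °C (−0.34, adjusted p = 0.0297). For 44 °C against 40 °C, 1 of the 7 was lower and 1 higher, where 3.14% and 1.88% of all genes were.

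Thioredoxin-fold genes outside the ER were taken as a comparison from other compartments. Of 12 tested none was lower and 2 were higher at 44 °C against 37 °C (median 0.12), where 7.11% of all genes were lower and 6.58% higher, so these counts are near the share over all genes. The mean of Txndc9, a cytosolic gene, rose from 85.9 ± 1.14 CPM in the control to 107 ± 10.3 CPM (0.32 ± 0.06 on the log2 scale, edgeR adjusted p = 0.00573), and the glutaredoxin gene Glrx3 rose by 0.32 (adjusted p = 0.0134). The mitochondrial thioredoxin gene Txn2 had 0.33 and did not pass (adjusted p = 0.0639). A difference in direction between the lists was not tested.

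Genes of UPR sensors and factors were mixed in direction. At 44 °C against 37 °C 3 of 16 were lower and 3 higher (median −0.05), against 7.11% and 6.58% of all genes. Xbp1, which encodes a transcription factor that binds UPR elements, fell from 103 ± 2.11 CPM at 37 °C and 98.2 ± 8.96 at 40 °C to 58.3 ± 10.5 CPM at 44 °C (log2 fold change −0.82 ± 0.10, edgeR adjusted p = 0.000277). Mbtps1, the site-1 protease gene whose product cleaves ATF6, fell by 0.26 (adjusted p = 0.00842). Nfya, a subunit of the factor that binds the CCAAT box, rose by 0.29 (adjusted p = 0.00891). The other called genes of the list were named after their values were seen. Mbtps2, the site-2 protease gene, rose by 0.28 (edgeR adjusted p = 0.0201) and Atf4 by 0.35 (0.0397, with overlapping libraries). Creb3l2 was lower (−0.39, adjusted p = 0.0395). The counts do not separate spliced from unspliced Xbp1 mRNA, and mRNA levels give no measure of ATF6 or XBP1 activity.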

How the data were processed

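The submitters' processing notes name the tools featureCounts 1.5.0-p3, StringTie 1.3.3b, HISAT2 2.0.5 and fastp, and the build mm10, without roles or order. The authors deposited raw counts per gene, unpooled, with gene lengths. Use of the strand in counting is not stated. The deposited gene length was used as given, and how it was derived is not stated.

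Genes were filtered with filterByExpr (minimum count 10, minimum total 15), which kept between 99.86% and 99.90% of each library's counts. Scaling was by TMM, with factors between 0.971 and 1.02. edgeR 4.0.16 (R 4.3.3) fitted all 12 libraries together, with the temperature as the only factor, and tested contrasts by quasi-likelihood F-tests and adjusted by Benjamini-Hochberg over all 14424 genes. SE was taken as the size of the log2 fold change over the root of F, and intervals are 95%. The script was tested on simulated counts. DESeq2 1.42.0 and the other alternatives named in the closing section were run. Log2 CPM used a prior count of 2. A count of 0 allows up to 3 counts, 0.154 to 0.184 CPM, for counting error only. Chi-square per gene between replicates was 2.88 to 21.6, so no library repeated another.

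The members and lists were chosen with earlier results of these data known. All members were named, with the 3 genes of smallest joint p of each list, Hspa5, Calr, Canx, P4ha1, P4ha2 and Ero1a. Likeness was Pearson r over libraries, passing over predicted genes. Ero1a was matched by its older symbol. Promoters came from RefSeq.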

Additional observations from a re-analysis of the deposited data

How the results depend on the processing

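For 44 °C against 37 °C, 8 of the 10 genes (all but Pdia5 and Tmx1) kept their direction and their side of the threshold under all 19 alternatives: DESeq2 size factors, library totals, DESeq2's test, no filter, the replicate block, a threshold of 0.01, a fit of the 8 libraries compared, and each library left out. The number of the 10 genes called was 6 to 7 there, 6 to 7 for 44 °C against 40 °C, 0 throughout for 40 °C against 37 °C, and 6 to 7 in the joint test, where Pdia5 was the gene lost. With the replicate number as a block, 6, 7 and 0 of the 10 genes and 2557, 901 and 0 of all genes were called. Same-numbered libraries had r between −0.207 and 0.366 (median 0.0501), and differently numbered ones −0.392 to 0.310 (median −0.00701). For 1 of 12 libraries the same number correlated best in both other groups. These values do not settle whether the numbers pair the samples. Counts over all genes moved more. For 44 °C against 37 °C (1975) they were 630 at 0.01 and 979 to 3355 with a library left out: 979, 1156 and 1063 without 37 °C replicates 1, 2 and 4, and 3355, 980 and 1062 without 44 °C replicates 1, 2 and 4. For 44 °C against 40 °C (724) they were 1220 with DESeq2, 334 with the 8 libraries compared, 270 at 0.01 and 394 to 1265 with a library left out: 394, 421 and 420 without 40 °C replicates 1, 3 and 4, and 1265, 426 and 456 without 44 °C replicates 1, 2 and 4. For 40 °C against 37 °C (0) they were 4 with DESeq2, 13 without the filter and 0 to 1 with a library left out. The cause was not tested. Directions turned only among uncalled log2 fold changes of 40 °C against 37 °C. Library totals gave −0.0133 for Erp29 and −0.00341 for Erp44. With a library left out the values ranged from −0.00594 to 0.0364 for Erp29, −0.00475 to 0.0567 for Erp44, −0.0644 to 0.0384 for Pdia6, −0.0595 to 0.0385 for Pdia4, −0.0193 to 0.00503 for Pdia3, −0.0296 to 0.0528 for P4hb and −0.00285 to 0.0490 for Tmx1. Scaling to summed length-scaled counts gave 933 for P4hb and 10.9 for Pdia5 at 37 °C in place of 299 and 3.504, with the order of the 10 genes as before. Of the 10 genes Pdia5 had the fewest reads, 119 to 218 per library; the part of depth in its calls was not tested.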
